A study of Mus musculus with 40 samples.

Results

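Ppp1r1b, Drd1, Drd2, Rgs9, Penk and Pde10a are genes by which the projection neurons of the striatum and their dopamine receptors are commonly recognised. They were taken by gene symbol, with earlier results of these data known, and are 6 of the 47643 genes counted. Their levels were followed over 40 RNA-seq libraries from the brains of wild-type germ-free Swiss Webster mice, all female, 6 to 8 weeks old and fed control chow. Each of 20 cohorts of mice received the stool microbiota of 1 of 10 human donors, sampled either before (pre-KD) or during (post-KD) a clinical ketogenic diet, so that every donor gave 1 cohort of each condition. Tissue was collected 4 days after colonization, from the hippocampus and the frontal cortex, with 6 mice pooled for each library. This gives 10 libraries for each region and condition, and every p value below measures the spread between pools, not between mice. No mouse ate the ketogenic diet itself, and both conditions share the germ-free origin, the chow and the colonization with human stool.

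Projection neurons of the striatum are inhibitory cells that fall into a direct pathway, rich in the D1 dopamine receptor, and an indirect pathway, rich in the D2 receptor. The D1 receptor, encoded by Drd1, raises cyclic AMP, and the D2 receptor, encoded by Drd2, lowers it. DARPP-32, the product of Ppp1r1b, is phosphorylated by the cyclic AMP-dependent kinase and then inhibits protein phosphatase 1. Rgs9 encodes a regulator that speeds the shut-off of G protein signals. Pde10a encodes the phosphodiesterase that breaks down cyclic AMP and cyclic GMP in these cells. Penk encodes the precursor of the enkephalin opioid peptides, which mark the indirect pathway. None of these genes is exclusive to the striatum: cortical and hippocampal neurons also use several of them, at lower levels.

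In the mm10 genome with the GENCODE M21 annotation, Drd1 (ENSMUSG00000021478) lies on the minus strand at chr13:54051183-54055705 and Drd2 (ENSMUSG00000032259) on the plus strand at chr9:49340627-49408177. Ppp1r1b (ENSMUSG00000061718) occupies chr11:98348404-98357796 on the plus strand and Rgs9 (ENSMUSG00000020599) chr11:109225355-109298129 on the minus strand. Pde10a (ENSMUSG00000023868) spans chr17:8525372-8986648 on the plus strand, and Penk (ENSMUSG00000045573) lies at chr4:4133531-4138819 on the minus strand. The exons of Ppp1r1b share 460 bases (15.7%) with the antisense transcript 1700003D09Rik, which had 0 counts, and those of Penk share 233 bases (14.3%) with the antisense A830012C17Rik, which had 16 hippocampal and 21 cortical counts. The strand setting of the counting was not stated, so reads in these shared stretches could have come from either strand.

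Promoter windows of 300 bases, from 250 bases before the RefSeq start to 50 after it on GRCm38.p6, were held for 4 of the 6 genes, and those of both dopamine receptors and of Rgs9 are given here because Drd1 was detected in nearly all libraries and Drd2 in few, and because Rgs9 differed most between regions. Each is written 5′ to 3′ on the strand of its gene. The capitals mark matches to GGGCGG or its reverse complement CCGCCC (the GC box) and to TATAAA or its reverse complement TTTATA (the TATA box).
Drd1, chr13:54055609-54055908, minus strand: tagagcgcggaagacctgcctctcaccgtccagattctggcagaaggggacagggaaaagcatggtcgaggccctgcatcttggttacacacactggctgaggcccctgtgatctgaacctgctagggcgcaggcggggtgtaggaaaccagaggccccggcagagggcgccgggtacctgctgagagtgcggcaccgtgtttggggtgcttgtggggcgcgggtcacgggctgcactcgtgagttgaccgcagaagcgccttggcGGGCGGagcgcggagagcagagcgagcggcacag
Drd2, chr9:49340153-49340452, plus strand: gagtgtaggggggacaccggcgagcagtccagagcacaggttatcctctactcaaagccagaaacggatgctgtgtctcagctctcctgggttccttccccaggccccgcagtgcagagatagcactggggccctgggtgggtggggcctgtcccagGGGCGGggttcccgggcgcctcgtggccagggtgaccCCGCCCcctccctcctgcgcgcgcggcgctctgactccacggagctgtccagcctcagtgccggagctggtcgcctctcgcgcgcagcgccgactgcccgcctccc
Rgs9, chr11:109298132-109298431, minus strand: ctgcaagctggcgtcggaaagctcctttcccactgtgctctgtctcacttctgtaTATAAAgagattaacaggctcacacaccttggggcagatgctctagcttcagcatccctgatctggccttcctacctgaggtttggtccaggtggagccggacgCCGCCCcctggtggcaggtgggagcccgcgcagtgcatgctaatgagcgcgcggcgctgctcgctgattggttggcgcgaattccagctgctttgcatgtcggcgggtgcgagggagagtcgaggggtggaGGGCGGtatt
The Drd1 window held 1 GC box, the Drd2 window 2, and the Rgs9 window 2 together with 1 TATA box. Pde10a had 2 windows (chr17:8801495-8801794 and chr17:8849735-8850034) with 1 GC box each, and a second Drd1 window (chr13:54054731-54055030) also had 1. A GC box was found in 35.7% and a TATA box in 13.6% of all 32851 promoter windows. The cyclic AMP response half-site TGACG or its reverse complement CGTCA was found in 20.8% of them but in no window of these genes. GC content was 65.7% in the Drd1 window, 70.3% in the Drd2 window and 60.3% in the Rgs9 window. These matches describe the letters of the windows only.

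The libraries were shallow, with 1140756 to 1947416 gene counts (median 1560670) in the hippocampus and 1188447 to 2095352 (median 1718002) in the frontal cortex. Levels below are in CPM, counts scaled to library size by the TMM method over all 40 libraries. The pre-KD cohort of donor 6 stood apart in both regions. Its frontal cortex library was the lowest of 20 for each of the 5 members that could be tested (summed CPM of the members 511, against 651 to 1081 in the others) and the highest for the hippocampal neuron list (1278 CPM, next 1123) and the choroid plexus list (617 CPM, next 440). Its hippocampal library had the highest summed CPM of the members (303) and of 23 other striatal genes (754). The part of dissection in these values was not tested. Fits without this cohort were added after the data had been seen, and their values are given where they move a result.

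All 5 members that could be tested were higher in the frontal cortex than in the hippocampus, by a fitted log2 difference of 1.66 to 4.26, and in nearly every cohort. The edgeR quasi-likelihood test with a term for each cohort called 385 of 19422 genes (1.98%) higher in the frontal cortex at an adjusted p under 0.05, and these 5 were among them. The median difference of all genes was 0.17. Region and any batch of dissection or sequencing by region cannot be told apart, and in bulk tissue fewer cells of a type and less RNA per cell cannot be told apart either.

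Drd1, the D1 receptor gene, was detected in 39 of 40 libraries. In the hippocampus it lay between 0 and 66.9 CPM in the pre-KD libraries (median 13.5) and between 4.17 and 26.6 in the post-KD libraries (median 13.8). In the frontal cortex the pre-KD libraries ran from 58.4 to 122 CPM (median 102) and the post-KD libraries from 65.9 to 148 (median 86.0). The regions overlapped through 1 cohort only: in the pre-KD cohort of donor 6 the hippocampal library reached 66.9 CPM and the cortical one 58.4, and in the other 19 cohorts the cortex was higher. The fitted difference was 2.88 (SE 0.24, adjusted p = 4.76e-30, edgeR), and mean levels were 16.8 ± 15.4 CPM (hippocampus) and 94.5 ± 26.9 CPM (frontal cortex) (SD, n = 20 each).

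Drd2, the D2 receptor gene, was all but absent from the table. It had 0 counts in all 20 hippocampal and 18 of 20 cortical libraries. The exceptions were the frontal cortex pre-KD libraries of donor 2, with 4 counts (2.81 CPM), and of donor 5, with 1 count (0.523 CPM). The 5 cortical counts amount to 0.148 CPM of the region's summed counts (exact 95% interval 0.0480 to 0.345, counting error only). The 0 hippocampal counts allow up to 0.0979 CPM by a limit of 3 counts, and up to 0.120 by the upper end of the exact 95% interval. Drd2 therefore passed no filter and has no fold change or test here. The 2 receptor genes differed in this way while other genes of the indirect pathway were readily counted in the frontal cortex: Gpr6, an orphan receptor gene of these neurons, had 321 counts over 18 cortical libraries and 1 count in the hippocampus, and Adora2a, an adenosine receptor gene of the same neurons, averaged 28.7 ± 15.4 CPM in the cortex (SD, n = 20). Of the other listed genes, chosen after their values had been seen, Drd3 had 0 hippocampal and 6 cortical counts, the muscarinic receptor gene Chrm4 0 and 5, and Gnb5, whose product is the binding partner of the Rgs9 protein, 0 and 7. The cause of these near-zero counts was not tested.

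Ppp1r1b, the DARPP-32 gene, was counted in all 40 libraries. Its hippocampal libraries ran from 31.2 to 113 CPM pre-KD (median 81.8) and from 18.5 to 90.0 post-KD (median 41.3). Its cortical libraries ran from 207 to 479 CPM pre-KD (median 323) and from 267 to 440 post-KD (median 323). No hippocampal library reached the lowest cortical one, and the cortex was higher in 20 of 20 cohorts. The fitted difference was 2.49 (SE 0.12, adjusted p = 2.62e-90, edgeR).

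Rgs9, the G protein regulator gene, was patchy in the hippocampus. It was at 0 in 4 of 10 pre-KD and 4 of 10 post-KD hippocampal libraries, with medians of 5.38 and 0.706 CPM and maxima of 37.4 and 41.0. Its cortical libraries ran from 31.5 to 115 CPM pre-KD (median 101) and from 53.3 to 117 post-KD (median 77.4). The regions overlapped, since the highest hippocampal library (41.0 CPM) passed the lowest cortical one (31.5 CPM), but within each of the 20 cohorts the cortex was higher. The fitted log2 difference of 4.26 (SE 0.30, adjusted p = 1.64e-43, edgeR) depended on the model: it was 3.14 without the cohort term and 5.21 in DESeq2, and the ratio of the mean CPM of the regions was 8.84.

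Pde10a, the phosphodiesterase gene, had the smallest regional difference of the group. The hippocampal libraries ran from 29.8 to 75.2 CPM pre-KD (median 45.8) and from 11.3 to 66.4 post-KD (median 44.0), and the cortical libraries from 80.1 to 219.8 pre-KD (median 136) and from 84.3 to 243 post-KD (median 154). The regions came close but did not overlap, and the cortex was higher in 20 of 20 cohorts. The fitted difference was 1.66 (SE 0.16, adjusted p = 2.41e-22, edgeR).

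Penk, the enkephalin precursor gene, ran from 2.18 to 76.3 CPM pre-KD (median 29.9) and from 5.74 to 50.01 post-KD (median 20.4) in the hippocampus. Its cortical libraries ran from 134 to 240.2 CPM pre-KD (median 196) and from 146 to 300.1 post-KD (median 242). No hippocampal library reached the cortical range, and the cortex was higher in 20 of 20 cohorts. The fitted difference was 3.32 (SE 0.16, adjusted p = 1.62e-91, edgeR).

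**Figure D1:**
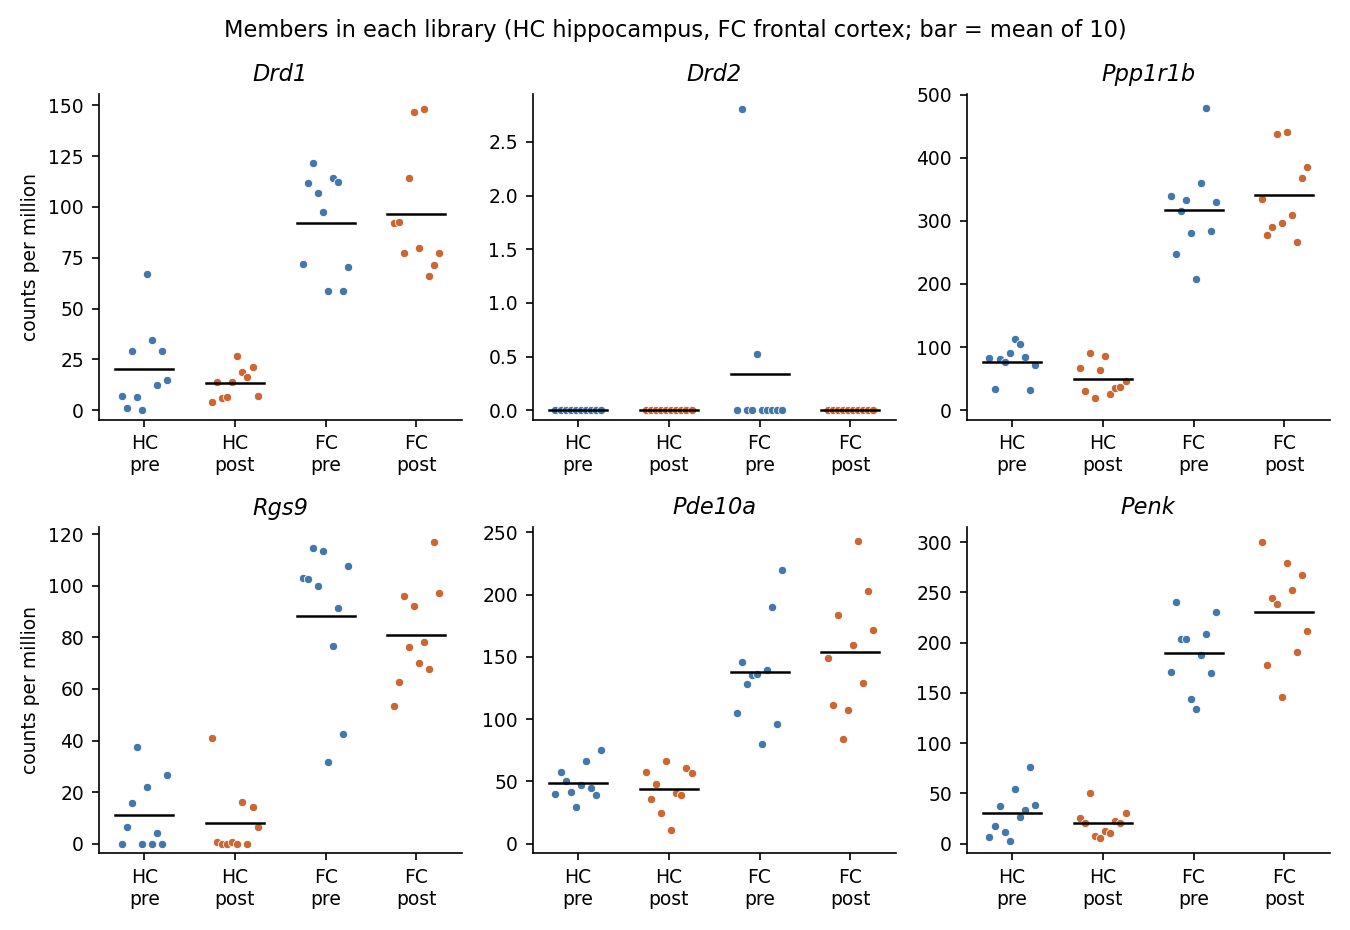
Level of each of the 6 genes in CPM in every library, by region (HC, hippocampus; FC, frontal cortex) and condition, 10 libraries a group. Each point is 1 pool of 6 mice, each bar the mean of its group, and each panel has its own linear scale. Ppp1r1b, Penk and Pde10a show no overlap between regions, Drd1 and Rgs9 overlap, and Drd2 lies at 0 in all but 2 cortical pre-KD libraries.

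Apart from the counts and CPM set beside those of Drd2 above, levels of different genes are compared here only per kilobase of annotated exon. All such comparisons are uncertain to that degree because the sources name both a full-length and a 3′ end library kit. On this scale the cortical order was Penk (129 ± 28.3 CPM per kb), Ppp1r1b (112 ± 23.2), Drd1 (26.0 ± 7.42), Rgs9 (13.3 ± 3.82) and Pde10a (11.4 ± 3.49; SD, n = 20). Penk and Ppp1r1b lay within 1 SD of each other, as did Rgs9 and Pde10a, whereas Drd1 stood more than 1 SD from both neighbours. In the hippocampus the order was Ppp1r1b (21.7 ± 9.80 CPM per kb), Penk (15.7 ± 11.5), Drd1 (4.63 ± 4.25), Pde10a (3.62 ± 1.201) and Rgs9 (1.501 ± 2.05). There the spread covered the gaps from Ppp1r1b to Penk, from Penk to Drd1 and from Drd1 to Pde10a, and Rgs9 lay just over 1 SD below Pde10a.

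The size of the regional difference varied from cohort to cohort. The log2 difference of cortex over hippocampus ran from 0.87 to 4.47 for Ppp1r1b (median 2.33), from -0.19 to 6.31 for Drd1 (median 2.99) and from 0.37 to 6.53 for Rgs9 (median 4.60). It ran from 1.14 to 5.41 for Penk (median 3.25) and from 0.68 to 3.68 for Pde10a (median 1.59). The pre-KD cohort of donor 6, whose libraries stood apart, had the lowest difference for Drd1 and Ppp1r1b and was next to lowest for Rgs9, Penk and Pde10a. Without it the fitted differences of the 5 genes were 1.71 to 4.48.

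**Figure D2:**
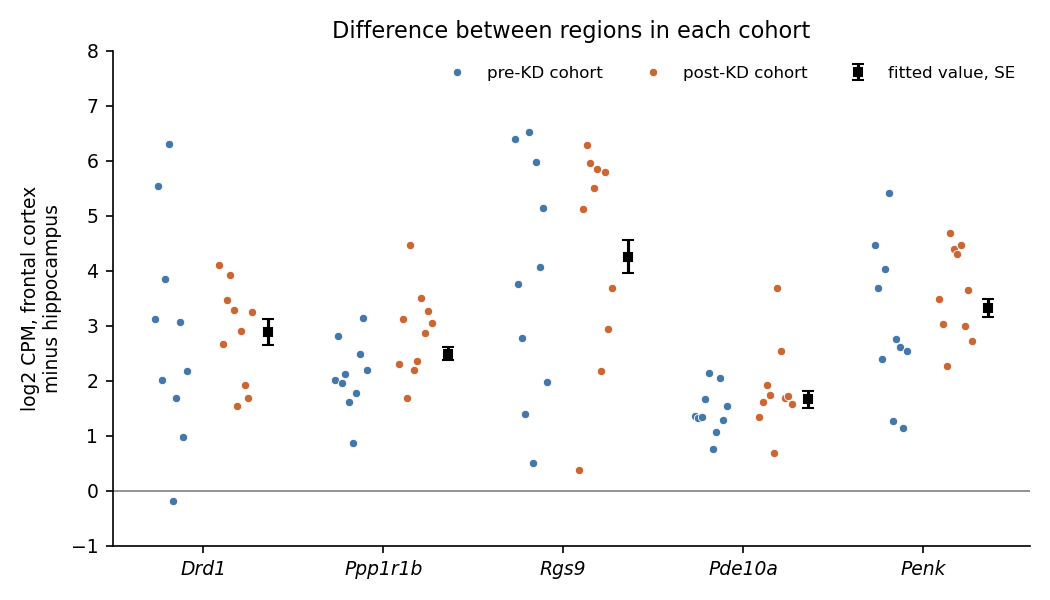
Log2 difference of frontal cortex over hippocampus within each of the 20 cohorts for the 5 genes that could be tested; blue points are pre-KD and orange points post-KD cohorts, the black squares give the fitted value with its SE, and the grey line marks no difference. Every point lies above the line except that of Drd1 in the pre-KD cohort of donor 6, at -0.19.

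Genes that share the biology of these cells were described from lists. Of 22 tested genes of other striatal neuron markers, 20 were higher in the frontal cortex and 0 lower at an adjusted p under 0.05 (edgeR), with a median log2 difference of 2.54. They include Tac1, the substance P precursor of the direct pathway (2.998, SE 0.266). Of 34 tested genes of dopamine and DARPP-32 signalling, 12 were higher and 0 lower, with a median of 0.26. Among these 12 were Gnal, the G protein subunit that couples the D1 receptor to adenylyl cyclase (1.30, SE 0.12), the phosphodiesterase gene Pde1b (1.59, SE 0.14) and the cyclic AMP-regulated phosphoprotein genes Arpp19 (1.35, SE 0.10) and Arpp21 (0.68, SE 0.07). Of 14 tested opioid genes, 3 were higher (Pdyn, the prodynorphin gene, at 1.965; Oprk1, the kappa receptor gene, at 2.02; Pcsk1n, an inhibitor of a propeptide-processing enzyme, at 0.37) and 1 lower (Cpe, the processing carboxypeptidase gene, at -0.21).

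Markers of other cells moved with the regions too. Of genes of dopamine neurons, 2 of 7 tested were higher in the cortex, namely Th, the rate-limiting enzyme of dopamine synthesis (4.41, SE 1.14), and Slc10a4 (4.14, SE 1.254), while Pitx3 had 0 counts in both regions. Of cholinergic and striatal interneuron genes, 2 of 6 were higher, namely the choline transporter gene Slc5a7 (4.85, SE 1.05) and the acetylcholine synthase gene Chat (4.37, SE 1.26). Among 9 tested olfactory bulb and neuroblast genes, 3 were higher. Of 15 hippocampal neuron genes 6 were lower and 0 higher, led by C1ql2 (-4.75, SE 0.70) and Prox1 (-2.01, SE 0.24), and of 10 choroid plexus genes 7 were lower and 0 higher. Interneuron genes were higher in 4 of 12 cases and lower in 0, and 0 of 10 oligodendrocyte and 0 of 4 blood genes passed in either direction. Of 14 cortical excitatory neuron genes, 3 were higher and 2 lower. Lower calls made up 0.87% of all genes tested. The part of dissection in these differences was not tested.

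In the hippocampus, the change from pre-KD to post-KD was negative for 5 of 5 members, but only Ppp1r1b passed an unadjusted p under 0.05 and none passed after adjustment over 17529 genes. That 1 of 5 stands against 10.1% of all genes at the unadjusted threshold and 0.0057% (1 gene) at the adjusted one. DESeq2 likewise gave 1 and 0 of 5, against 3.42% of all genes (599) unadjusted and 0 genes adjusted. The Rgs9 change was 0.0763 without donor 4, and so turned direction, and -0.33 without the pre-KD cohort of donor 6. The median change of the 5 was -0.56, against -0.01 over all genes tested.

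Ppp1r1b went from 76.9 ± 26.6 CPM pre-KD to 49.9 ± 25.1 post-KD in the hippocampus (SD, n = 10 each), with 3 pre-KD libraries above every post-KD library and 3 post-KD libraries below every pre-KD one. It was lower post-KD in 8 of 10 donors. The log2 change was -0.64 (SE 0.29, p = 0.0321, adjusted p = 0.378, edgeR). The unadjusted p was 0.0340 with the donor as a block, but 0.0764 without donor 4, 0.103 without donor 7, 0.0696 without donor 8 and 0.0739 without the pre-KD cohort of donor 6.

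The other 4 members overlapped widely between conditions in the hippocampus. Drd1 averaged 20.2 ± 20.5 CPM pre-KD and 13.4 ± 7.50 post-KD (log2 change -0.60, SE 0.66), and Rgs9 11.2 ± 13.5 and 7.94 ± 13.2 (-0.50, SE 0.96; SD, n = 10). Pde10a averaged 49.1 ± 13.7 and 44.0 ± 17.4 CPM (-0.17, SE 0.33), and Penk 30.4 ± 22.9 and 20.7 ± 13.1 (-0.56, SE 0.50). Their unadjusted p values from edgeR were 0.260 to 0.615. The Drd1 change was -0.16 without the pre-KD cohort of donor 6, whose library had the 66.9 CPM, and -0.11 with the donor as a block. The block also moved the changes of Rgs9 to -1.79 and of Penk to -0.33. Leaving out 1 donor in turn gave -0.77 to -0.30 for Penk (the latter without donor 9) and -0.31 to -0.05 for Pde10a (without donors 5 and 6). The number of donors lower post-KD was 6 of 10 for Drd1, Rgs9 and Penk and 7 of 10 for Pde10a. Among 20 tested genes of other striatal neurons, 13 were lower and 0 passed an unadjusted p under 0.05 (median -0.11). Of 33 tested dopamine and DARPP-32 signalling genes, 1 passed it, the casein kinase gene Csnk1e (-0.45, SE 0.21, p = 0.0335, adjusted p = 0.389, edgeR), and of 14 opioid genes 0 did. Of 4 tested cholinergic and striatal interneuron genes, 4 had a positive change and 2 passed the unadjusted threshold, with summed levels of 4.87 to 119 CPM pre-KD and 0 to 106 post-KD. Of 8 olfactory bulb and neuroblast genes 8 had a negative change and of 4 blood genes 4 a positive one, and 0 of either passed. Of 15 hippocampal neuron genes, 2 were higher and 1 lower at the unadjusted threshold (median change 0.17). Their part in the changes of the members was not tested.

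In the frontal cortex, the change post-KD was positive for 4 of 5 members and negative for Rgs9. Only Penk passed an unadjusted p under 0.05, against 9.68% of all 17873 genes, and none passed after adjustment (0.0056%, 1 gene). DESeq2 again gave 1 and 0 of 5, against 4.62% of all genes (825) unadjusted and 0.0112% (2 genes) adjusted. Small changes turned direction when 1 donor was left out: that of Ppp1r1b was -0.00128 without donor 6 and that of Drd1 -0.0138 without donor 5. The median change of the 5 was 0.10, against 0.01 over all genes.

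Penk went from 189 ± 34.7 CPM pre-KD to 231 ± 48.5 post-KD in the frontal cortex (SD, n = 10 each), with 5 post-KD libraries above every pre-KD library and 2 pre-KD libraries below every post-KD one. It was higher post-KD in 7 of 10 donors. The log2 change was 0.28 (SE 0.13, p = 0.0350, adjusted p = 0.431, edgeR). The unadjusted p rose to 0.113 without donor 1, 0.145 without donor 6, 0.0671 without donor 7, 0.0870 without donor 9 and 0.0817 without the pre-KD cohort of donor 6 alone.

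The remaining members differed by less than their spread in the frontal cortex. Ppp1r1b averaged 318 ± 73.2 CPM pre-KD and 341 ± 64.0 post-KD (log2 change 0.10, SE 0.12), and Drd1 92.3 ± 24.8 and 96.6 ± 30.1 (0.06, SE 0.18; SD, n = 10). Rgs9 averaged 88.4 ± 29.3 and 81.1 ± 19.3 CPM (-0.13, SE 0.19), and Pde10a 138 ± 41.9 and 154 ± 48.3 (0.16, SE 0.16). Without the pre-KD cohort of donor 6 the changes were 0.045 (Ppp1r1b), 0.0021 (Drd1), -0.23 (Rgs9) and 0.097 (Pde10a). Leaving out 1 donor in turn gave -0.28 (without donor 9) to -0.049 (without donor 1) for Rgs9, and 0.063 (without donor 9) to 0.24 for Pde10a. The number of donors higher post-KD was 6 of 10 for Ppp1r1b, 7 for Drd1, 3 for Rgs9 and 5 for Pde10a.

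Other striatal neuron genes in the frontal cortex were higher post-KD in 15 of 22 cases, with a median of 0.24. Of these 22, 3 passed an unadjusted p under 0.05 and 0 an adjusted one. Among the 3 were the small G protein gene Rasd2 (0.38, SE 0.17, p = 0.0245, adjusted p = 0.344, edgeR) and the retinoid receptor gene Rxrg (0.74, SE 0.35, p = 0.0399, adjusted p = 0.459, edgeR). Their summed level was 1611 ± 249 CPM pre-KD and 1751 ± 197 post-KD (SD, n = 10). Of 34 dopamine and DARPP-32 signalling genes, 3 passed the unadjusted threshold, all lower, among them the phosphodiesterase gene Pde4d (-0.69, SE 0.22, p = 0.00254, adjusted p = 0.122, edgeR) and the receptor gene Drd4, whose 42 counts came from 3 libraries. Of 14 opioid genes 0 passed. Among 4 blood genes, 2 were higher at the unadjusted threshold and 2 had a negative change, with summed levels of 390.3 to 1157 CPM pre-KD and 547.9 to 1389 post-KD. All 9 olfactory bulb and neuroblast genes had a negative change and 1 passed the unadjusted threshold, with summed levels of 98.3 to 257 and 62.4 to 208 CPM. Of 14 hippocampal neuron genes, 10 had a negative change and 1 passed the unadjusted threshold, as a lower one (median -0.12). None of these 3 lists had a gene past the adjusted threshold. Their part in the changes of the members was not tested.

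**Figure D3:**
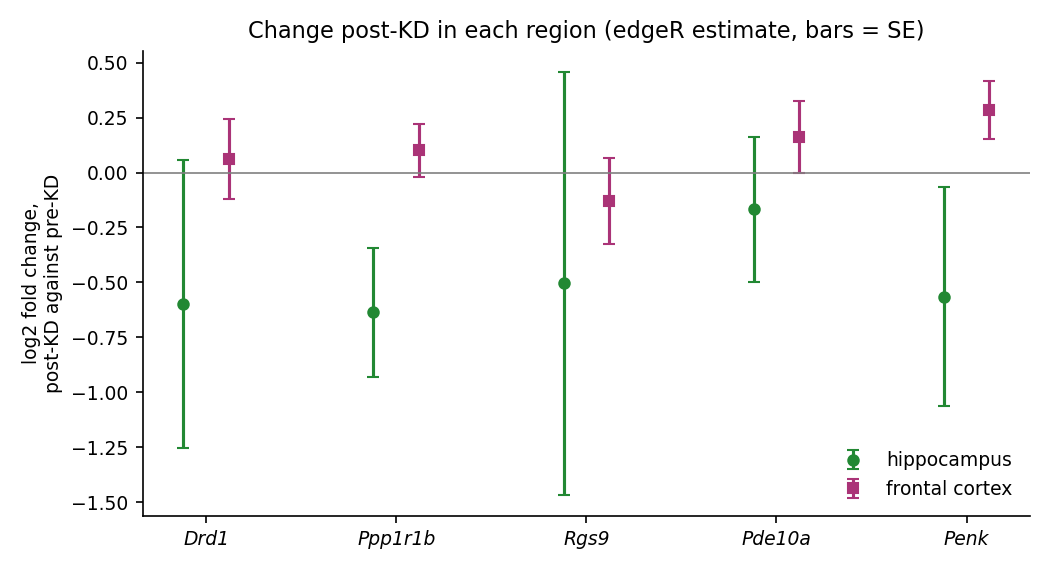
Log2 change from pre-KD to post-KD of the 5 tested genes in the hippocampus and the frontal cortex, with the SE from edgeR as bars. The hippocampal changes are all negative (-0.64 to -0.17) and the cortical ones lie between -0.13 and 0.28, with none past an adjusted p of 0.05; the hippocampal change of Drd1 was -0.16 without the pre-KD cohort of donor 6.

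Whether the change post-KD differed between regions was tested in 1 model over 40 libraries. The cortical change exceeded the hippocampal one for all 5 members, and 2 of them, Ppp1r1b and Penk, passed an unadjusted p under 0.05, against 2.22% of 19422 genes. None passed after adjustment, against 0.0154% (3 genes). For Ppp1r1b the difference was 0.79 (SE 0.23, p = 0.000757, adjusted p = 1, edgeR), and the unadjusted p stayed under 0.05 when any 1 donor was left out (0.62 to 0.91). For Penk it was 0.65 (SE 0.31, p = 0.0346, adjusted p = 1, edgeR), with an unadjusted p of 0.249 without donor 6, 0.0946 without donor 7, 0.184 without donor 9, 0.146 without the pre-KD cohort of donor 6 and 0.0957 with edgeR's own expression filter. The differences of Rgs9 (0.77, SE 0.60), Pde10a (0.38, SE 0.32) and Drd1 (0.19, SE 0.48) were within 2 SE. That of Pde10a ran from 0.13 to 0.59 when 1 donor was left out. That of Rgs9 passed the unadjusted threshold without donor 1 (1.68, p = 0.00733), donor 7 (1.495, p = 0.0150) or donor 9 (1.34, p = 0.0336, all edgeR). It fell as low as 0.11 when another donor was left out, and to 0.36 in the other alternatives. That of Drd1 was -0.13 without the pre-KD cohort of donor 6 and ran from 0.18 to 0.66 in the other alternatives.

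Libraries of 1 region and condition could also be compared with each other, to see whether the members rose and fell together from pool to pool. With condition means removed, all 10 pairs of the 5 members had a positive Pearson correlation over the 20 libraries of each region. For comparison, the median r of a member with all genes averaging at least 20 counts was -0.02 to 0.09 in the hippocampus and -0.03 to 0.04 in the frontal cortex, and the 95th percentile 0.41 to 0.50 and 0.37 to 0.43. Cortical r ran from 0.087 to 0.61 with a median of 0.35. The 2 farthest libraries are those farthest from the median of the first gene named, or of the member where it is set against a list. The highest pair was Penk with Pde10a (r = 0.61, permutation p = 0.00595, adjusted p = 0.119 over 20 pairs; rho = 0.63, permutation p = 0.00427; 0.74 within pre-KD and 0.51 within post-KD libraries; 0.57 without the 2 farthest libraries). Rgs9 with Pde10a (r = 0.54, permutation p = 0.0144, adjusted p = 0.144; rho = 0.48, permutation p = 0.0324; 0.69 pre-KD, 0.35 post-KD) fell to 0.25 without the 2 farthest libraries and so rested on them. Ppp1r1b with Penk (r = 0.48, permutation p = 0.0352, adjusted p = 0.176; rho = 0.42, permutation p = 0.0729; 0.45 pre-KD, 0.53 post-KD; 0.36 without the 2 farthest) was the third.

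In the hippocampus r ran from 0.011 to 0.55 with a median of 0.10. Drd1 with Penk (r = 0.55, permutation p = 0.0301, adjusted p = 0.176; rho = 0.35, permutation p = 0.154) was 0.82 within pre-KD and -0.39 within post-KD libraries and 0.27 without the 2 farthest libraries, so it did not hold within both conditions. Rgs9 with Pde10a (r = 0.44, permutation p = 0.0499, adjusted p = 0.200; rho = 0.49, permutation p = 0.0249) was 0.38 pre-KD, 0.51 post-KD and 0.45 without the 2 farthest. No pair in either region passed the adjusted threshold, and under some alternative the sign changed for 6 of 10 hippocampal and 2 of 10 cortical pairs.

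**Figure D4:**
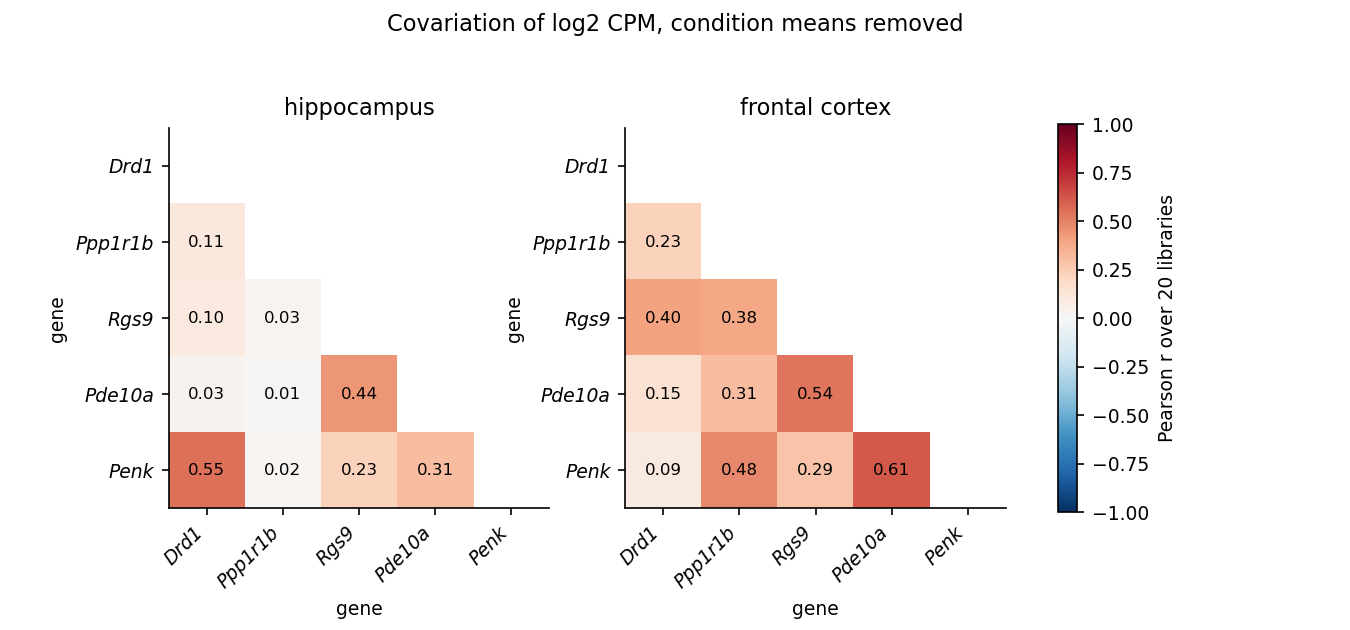
Pearson correlation of the log2 CPM of each pair of the 5 tested genes over 20 libraries, condition means removed, for the hippocampus and the frontal cortex. All 20 values are above 0; the cortical ones reach 0.61 (Penk with Pde10a) and the hippocampal ones 0.55 (Drd1 with Penk).

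Against the summed level of 23 other striatal genes, 3 of 5 members had a correlation past the adjusted threshold in the frontal cortex and 0 of 5 in the hippocampus. In the frontal cortex r was 0.74 for Rgs9 (permutation p = 0.00273, adjusted p = 0.0170 over 10 relations; rho = 0.61, permutation p = 0.00610), 0.63 for Pde10a (permutation p = 0.00340, adjusted p = 0.0170; rho = 0.62, permutation p = 0.00418) and 0.62 for Ppp1r1b (permutation p = 0.00571, adjusted p = 0.0190; rho = 0.55, permutation p = 0.0146). It was 0.49 for Penk (permutation p = 0.0278, adjusted p = 0.0695) and 0.38 for Drd1 (permutation p = 0.117, adjusted p = 0.186). The 3 relations past the adjusted threshold rested on few libraries. Within pre-KD libraries r was 0.92, 0.81 and 0.75 for Rgs9, Pde10a and Ppp1r1b and within post-KD libraries 0.30, 0.42 and 0.40, and without the 2 farthest libraries it was 0.27, 0.48 and 0.42. Without donor 6, without donor 9 or without the pre-KD cohort of donor 6 alone, 0 relations passed; in the last case r was 0.55, 0.53 and 0.47 (adjusted permutation p 0.108, 0.108 and 0.121). In the hippocampus r was 0.15 (Drd1) to 0.47 (Pde10a, permutation p = 0.0519), and 0 of 5 had a permutation p under 0.05. That of Drd1 was 0.55 within pre-KD and -0.65 within post-KD libraries, and that of Pde10a -0.042 and 0.74.

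**Figure D5:**
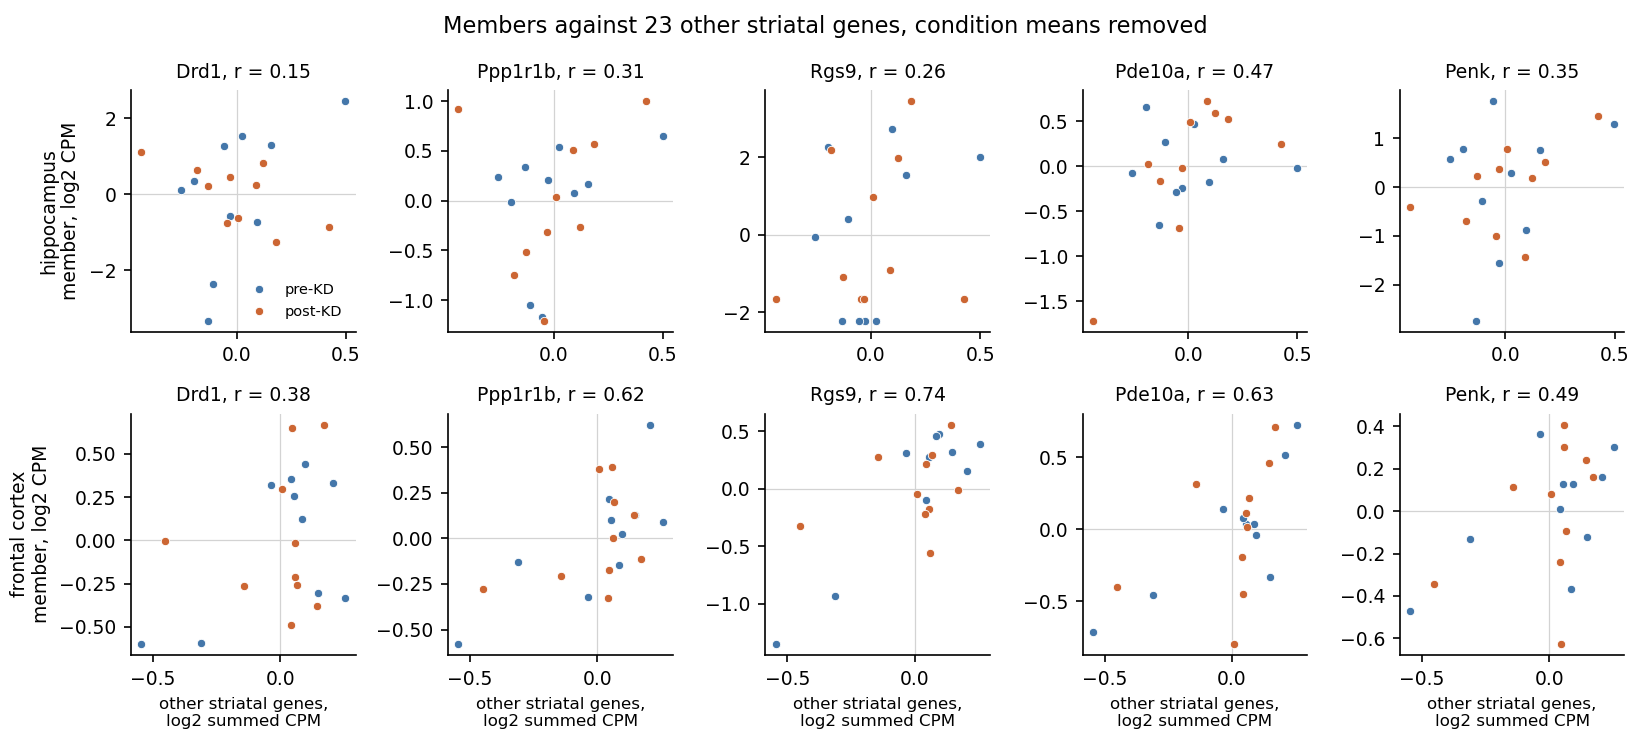
Log2 CPM of each member against log2 of the summed CPM of 23 other striatal genes, condition means removed, with 20 libraries in each panel (upper row, hippocampus; lower row, frontal cortex; blue, pre-KD; orange, post-KD). The leftmost point of each cortical panel is the pre-KD library of donor 6, and cortical r runs from 0.38 (Drd1) to 0.74 (Rgs9).

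Relations of the members with the lists of other cells and regions were tested in the same way, 80 in all. Of these, 5 had a permutation p under 0.05, close to the 4 that this threshold gives with no relation, and 0 passed after adjustment, so they are given as a description. With the hippocampal neuron list, r was -0.49 for Pde10a in the hippocampus (permutation p = 0.0101, -0.53 without the 2 farthest libraries) and -0.59 for Ppp1r1b in the frontal cortex (permutation p = 0.0115, -0.37 without the 2 farthest). In the hippocampus it was 0.54 for Drd1 with blood genes (permutation p = 0.0145, 0.43 without the 2 farthest) and -0.47 for Rgs9 with oligodendrocyte genes (permutation p = 0.0424, -0.32). For Pde10a with olfactory genes in the frontal cortex it was -0.52 (permutation p = 0.0235, -0.46). In the same order rho was -0.50, -0.48, 0.45, -0.47 and -0.37 (permutation p 0.0219 to 0.120), and the adjusted permutation p of r was 0.387 to 0.472. Within pre-KD libraries r was, in this order, -0.67, -0.70, 0.82, -0.74 and -0.19. Within post-KD libraries it was -0.49, -0.38, 0.041, -0.18 and -0.81. The same cohort's level in the hippocampus and the frontal cortex was not related for any member at this number of cohorts: r ran from -0.23 to 0.27, and 0 of 5 had a permutation p under 0.05.

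Genes were ranked by how alike their pattern over the libraries was to the summed level of the members. Among 8250 frontal cortex genes with at least 20 counts on average, the most alike were Adss (r = 0.75), Foxp1 (0.74), Klhl24 (0.74), Rwdd2a (0.70), Esd, Scd1, Eif2b5, St8sia3, Ddx27 and Peg10 (0.67 for the last). All genes compared were counted in the same 20 libraries, so they share the depth and the pool of each library. None of these cortical genes is on the list of other striatal genes. Among 8012 hippocampal genes the most alike were Acat2 (0.78), Znhit2 (0.72), Git1 (0.72), Tac1 (0.72), Tmem158 (0.72), Sdc3 (0.71), Pan3, Ndufs6, Fam102a and Clptm1 (0.69 for the last). Of these, Tac1 is on the list of other striatal genes. The gene most like a single member in the frontal cortex was Rwdd2a for Ppp1r1b (0.69), Pik3c3 for Rgs9 (0.79), Unc13c for Penk (0.81) and Akap9 for Pde10a (0.76). In the hippocampus it was Trir for Ppp1r1b (0.84), Rab28 for Drd1 (0.80), Gp1bb for Rgs9 (0.78), Kcnh7 for Penk (0.77) and Pqlc1 for Pde10a (0.85). These are the highest among all the genes compared and are given as a description. Of the other striatal genes at this level, 18 of 19 had a positive r with the summed members in the frontal cortex (median 0.33, against -0.01 over all genes), and 9 of 11 did in the hippocampus (median 0.15).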

How the data were processed

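RNA-seq of the hippocampus and the frontal cortex was analysed in 40 libraries, each a pool of 6 mice. The authors deposited 1 table of unnormalized read counts per region for 47643 Ensembl genes. Per the labels and the study's methods, paired reads of 69 bp were aligned to mm10 with STAR 2.5.2a and counted with HTSeq 0.6.0 (SAMtools 1.3 and FastQC 0.11.5 are also named in the submitters' processing notes). The annotation release and the strand setting of the counting were not given in the sources used here. A gene symbol was found for 47224 genes and none for 419. GENCODE M21 gave the positions of the 6 members. A TruSeq kit is named in the methods and a QuantSeq 3′ kit in the list of resources. No libraries held identical values.

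Genes with at least 10 summed counts were tested with edgeR 4.0.16 (quasi-likelihood, TMM; R 4.3.3), separately per region for post-KD against pre-KD, and jointly in all 40, blocked by the 20 cohorts, for the region and for the difference between regions. SEs were derived from the F statistic. Adjustment was by Benjamini-Hochberg across every gene tested, at 0.05. Correlations used log2 CPM with a prior count of 2, 100000 permutations within conditions, two-sided, and were adjusted over 20 pairs, 10 relations with other striatal genes, 5 cohort relations and 80 relations with other lists. These families are smaller than the designed ones because Drd2 could not be tested. Alternatives were DESeq2 1.42.0, other size factors, gene filters, removal of Gm42418, the donor as a block, other correlation scales, and leaving out each donor.

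Donor numbers pair the samples by design. A number marks the same donor in both conditions, and a number with its condition marks the same cohort in both regions. Over genes averaging at least 20 counts, deviations of same-numbered pre-KD and post-KD libraries correlated at -0.028 to 0.030 in the hippocampus and -0.056 to 0.032 in the frontal cortex. Those of the 2 regions of a cohort correlated at -0.017 to 0.19 pre-KD (1 of 10 above 0.1) and -0.0049 to 0.042 post-KD. The code was tested on simulated data. Named genes were the 6 members, up to 4 genes of each list by smallest p or else highest level, and the genes most like the members, some of which are not reported here; the members and all lists were chosen with earlier results of these data known. Python 3.11.15, numpy 2.4.6, pandas 2.3.3, scipy 1.17.1 and matplotlib 3.10.9 were used.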

Additional observations from a re-analysis of the deposited data

Results flagged for a closer look

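Over 21 groups of 10 libraries checked for a library far from the others, 3 were found. Chance flags about 1 in 20 groups, but that rate does not apply to groups with many libraries at 0, such as those of Drd2 and of Rgs9 in the hippocampus. Drd1 reached 66.9 CPM in the hippocampal pre-KD library of donor 6, where the next library had 34.7. Drd2 reached 2.81 CPM in the frontal cortex pre-KD library of donor 2, from 4 counts, where the next had 0.523. Rgs9 reached 41.0 CPM in the hippocampal post-KD library of donor 1, where the next had 16.3.

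The change post-KD differed between the frontal cortex and the hippocampus at an unadjusted p under 0.05 for Ppp1r1b (0.79 on the log2 scale) and Penk (0.65), and for neither after adjustment over all genes. The Ppp1r1b difference was 0.66 (p = 0.00529, edgeR) and the Penk difference 0.46 (p = 0.146) without the pre-KD cohort of donor 6.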

How the results depend on the processing

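The higher level of the 5 tested members in the frontal cortex kept its direction and an adjusted p under 0.05 in every alternative run. The counts of genes over the whole table depended on the gene filter and the model. For post-KD against pre-KD in the hippocampus, 1762 genes passed the unadjusted and 1 the adjusted threshold. These counts were 221 and 0 with edgeR's filterByExpr, 2931 and 1291 with no gene filter, 599 and 0 in DESeq2, 348 and 0 with the donor as a block, and 931 and 0 with the block in DESeq2. In the frontal cortex the unadjusted count of 1731 became 407, 3035, 825, 548 and 1096 in the same order, and the adjusted count of 1 became 2 in DESeq2, 3 with the block and 12 with the block in DESeq2. The regional count of 554 became 1033 in DESeq2 and 1935 without the cohort block. For the difference between regions, 3 adjusted genes became 0 with filterByExpr and 348 without the block, 431 unadjusted genes became 1767 without the block, and 2 members became 1 with filterByExpr. The block changed no call on a member. The cause of these shifts was not tested.

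Leaving out 1 donor, or the pre-KD cohort of donor 6 alone, moved the hippocampal change of Rgs9 from -1.53 to 0.0763, the cortical changes of Ppp1r1b from -0.00128 to 0.21 and of Drd1 from -0.0138 to 0.15, and the regional difference in change of Drd1 from -0.13 to 0.51. Adjusted genes in the hippocampus ranged from 0 to 1, members at the unadjusted threshold from 0 to 1 in either region and from 1 to 3 for the difference between regions. Positive pairs in the hippocampus ranged from 6 to 10, positive cohort relations from 2 to 4, and Drd1 with other striatal genes in the hippocampus from -0.12 to 0.22. Adjusted relations ranged from 0 to 1 for the hippocampal striatal list and the cortical pairs and from 0 to 4 for the cortical striatal list. Rgs9 had 303 counts over the 20 hippocampal libraries, 8 of them at 0, and its change there had the largest SE of the members (0.96). Drd2 had too few counts for a test.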
